A study of Homo sapiens with 12 samples.

Results

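Transport genes of the primary cilium, 34 in number, were followed in RPE1 cells treated with doxorubicin, alone or with ferrostatin-1. They were chosen by name, as the rows of the count table whose symbol is that of a subunit of intraflagellar transport, of the BBSome and its chaperonin, of a ciliary GTPase or of a few linked proteins. All 34 were found, each under 1 identifier, among 22498 gene identifiers, which make 21599 symbols after summing, and all 34 passed the filter on low counts that left 13340 genes for testing. RPE1 is an immortalised human retinal pigment epithelial line, labelled wild type in every group. The 3 groups of 4 libraries were cells given DMSO (control), 50 nM doxorubicin, or 50 nM doxorubicin with 5 µM ferrostatin-1. Doxorubicin is an anthracycline that poisons topoisomerase II and breaks DNA, and ferrostatin-1 traps lipid radicals and blocks ferroptosis, a form of death driven by lipid peroxidation. Compounds were added at plating and RNA was taken at 72 h, with ferrostatin-1 renewed at 48 h. There was no group with ferrostatin-1 alone, the labels do not mention serum withdrawal, which is commonly used to bring out cilia in this line, and cilia themselves were not among the measurements used here.

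The primary cilium is a single microtubule-based antenna that grows from the mother centriole of a resting cell and is taken down before division. Because no protein is made inside it, subunits are carried outward by trains of the IFT-B complex under kinesin-2 and back by trains with the IFT-A complex under dynein-2. The BBSome, a coat recruited by the GTPase ARL6, carries membrane proteins out of the cilium on these trains, while the transition zone at the base acts as the gate. RPE1 is widely used to study these steps.

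Total counts ran from 17523920 to 19650696 in control libraries, from 17980433 to 20607019 with doxorubicin and from 20243458 to 24879198 with both compounds. Members had between 91 and 1557 counts per library, and lie on 16 chromosomes. Levels are given as TMM-scaled CPM, a gene's counts relative to the library's size. Log2 fold changes carry a standard error (SE), and adjusted p-values come from edgeR's quasi-likelihood test over all 13340 genes with Benjamini-Hochberg adjustment. Calls were made where that p lay below 0.05, and "rose" or "fell" is used of called genes. The groups differed widely in cell cycle genes. MKI67, a marker of cycling cells, stood at 756 ± 120 CPM (SD, n = 4) in control and 31.3 ± 4.01 with doxorubicin, and CDKN1A, which encodes the cell cycle inhibitor p21, at 191 ± 10.0 and 1507 ± 56.5 CPM. Mitochondrially encoded genes took 2.81 to 3.08% of control counts, 3.86 to 4.06% with doxorubicin and 3.48 to 4.00% with both compounds. The part of these differences in the results on cilium genes was not tested. In such bulk RNA a smaller share of cells that express a gene and less of its RNA per cell cannot be told apart.

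Line and cell identity were read from marker lists. The keratin genes KRT8 and KRT18 were abundant, at 341 ± 23.4 and 257 ± 16.2 CPM in control and 614 ± 8.48 and 487 ± 11.3 CPM with doxorubicin, and MITF was at 45.4 ± 0.955 CPM in control. Over the 4 epithelial markers, of which 3 were tested and 2 rose and 1 fell with doxorubicin, the sum was 552 to 644 CPM in control, 1085 to 1131 CPM with doxorubicin and 1064 to 1174 CPM with both compounds. In control and with doxorubicin it came almost wholly from KRT8 and KRT18. The other 2 markers were KRT19 and TERT, of which 1 fell (log2 fold change -0.53) and 1 was not tested. The part of these marker differences in the results on cilium genes was not tested. The pigment cell genes TYR, TYRP1 and RLBP1 reached at most 5 counts in any library, and RPE65 had no row, so defining genes of mature retinal pigment epithelium were at or near 0. The summed level of the 8 genes of that list with a row, of 9 listed, was 65.3 to 66.2 CPM in control, 57.9 to 58.4 CPM with doxorubicin and 61.9 to 70.1 CPM with both compounds. Of 6 immune markers 4 had a row, and PTPRC, CD14 and HLA-DRA stayed at 12 counts or fewer. Their sum of 60.7 to 69.9 CPM in control, 70.6 to 77.7 CPM with doxorubicin and 76.3 to 87.5 CPM with both compounds came almost wholly from the lysosomal gene CD68. Of 4 endothelial markers 3 had a row, and these summed to 3.87 to 5.28 CPM in control, 1.61 to 2.41 CPM with doxorubicin and 1.33 to 2.45 CPM with both compounds, with PECAM1 at 5 counts or fewer. The 4 neuronal markers summed to 374 to 446 CPM in control, 479 to 509 CPM with doxorubicin and 567 to 630 CPM with both compounds, almost wholly from the tubulin gene TUBB3, while RBFOX3 stayed at 11 counts or fewer. Motile cilium genes were nearly silent. Of the 12 listed, 9 had a row, 5 were tested, no library had more than 93 counts of any of them, and their summed level was 7.79 to 9.33 CPM in control and 9.82 to 11.3 CPM with doxorubicin.

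Promoter sequence was available for 30 of the 34 genes, from RefSeq (GRCh38.p14), covering 250 bases before to 50 after each start. Ciliary genes are known for X-boxes, the binding element of RFX transcription factors, and one arm of the X-box, GTTGCC, was searched on both strands. It was present in 15 of 30 members (50.0%), against 17.1% of the 10389 tested genes with a promoter and 14.6% of all 27305 genes in the promoter table. A set of 6 stretches is shown, each 5′ to 3′ on the gene's strand with the arm in capitals (GGCAAC is the same arm read on the opposite strand), because they come from genes that moved in opposite directions after doxorubicin. The upper 3 belong to genes that rose and the lower 3 to genes that fell, at chr14:88824600-88824639 (TTC8, plus strand), chr2:43774014-43774053 (DYNC2LI1, plus), chr22:36776138-36776177 (IFT27, minus), chr3:129440195-129440234 (IFT122, plus), chr12:2890834-2890873 (TULP3, plus) and chr17:58219267-58219306 (MKS1, minus).
TTC8: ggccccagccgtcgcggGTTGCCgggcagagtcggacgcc
DYNC2LI1: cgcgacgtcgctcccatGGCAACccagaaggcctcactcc
IFT27: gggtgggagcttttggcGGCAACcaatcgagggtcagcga
IFT122: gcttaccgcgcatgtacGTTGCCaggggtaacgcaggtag
TULP3: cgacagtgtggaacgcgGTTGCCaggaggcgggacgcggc
MKS1: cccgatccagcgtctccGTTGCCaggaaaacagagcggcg

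These arms began 8 to 41 bases before the start. The rise of IFT27 was marginal, and its doxorubicin libraries overlapped control. The IFT122 stretch also held a second arm 3 bases on, making a whole X-box (GTTNCC, a gap of 0 to 3 bases, then GGNAAC, which overlaps the arm search), found in 2 of 30 members, IFT122 and ARL6, and in 1.11% of tested promoters. By direction, the arm was present in 6 of 14 genes that rose (IFT27, IFT46, DYNC2LI1, BBS1, TTC8 and BBS10), 4 of 9 that fell (IFT81, IFT122, TULP3 and MKS1) and 5 of 7 not called (IFT74, IFT88, DYNC2H1, BBS5 and ARL6). With any base at position 4 (GTTNCC), which includes the arm above, it was in 25 of 30 members and 55.3% of tested promoters. The E2F-type elements TTTGGCGC and TTTCGCGC, typical of replication genes, were found in 0 of 30 members, against 1.38% and 1.20% of tested promoters. The CCAAT box was in 14 of 30 (46.7%, against 43.3%), and the cell cycle element TTTGAA in 2 of 30 (6.67%, against 14.1%). All were searched on both strands, and a match is only a run of letters.

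Doxorubicin moved the transport genes in both directions and, on the TMM scale, left their total almost where it was. Against control, 15 of the 34 rose and 11 fell, which is 76.5% called, and 8 were not called. With libraries scaled by their totals alone, 7 rose and 13 fell. Across all tested genes 67.1% were called, 33.4% higher and 33.8% lower, so the share among members was near the background of this strong treatment. In 22 members the 4 doxorubicin libraries did not overlap the 4 control libraries, 11 above and 11 below, against 60.5% of all genes. The median log2 fold change of the 34 was 0.14, that of all genes -0.01. Changes were moderate, with members spanning -0.76 to 0.85, while all genes spanned -0.92 to 0.71 between their 10th and 90th percentile. Summed over the 34 genes, expression was 728 ± 14.9 CPM in control, 719 ± 19.6 with doxorubicin and 724 ± 19.8 with both compounds. The ranges of the groups overlapped. These sums rest on TMM factors of 1.06 to 1.08 in control, 0.965 to 0.974 with doxorubicin and 0.961 to 0.973 with both compounds. On library totals alone the treated sums would stand lower against control.

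**Figure D1:**
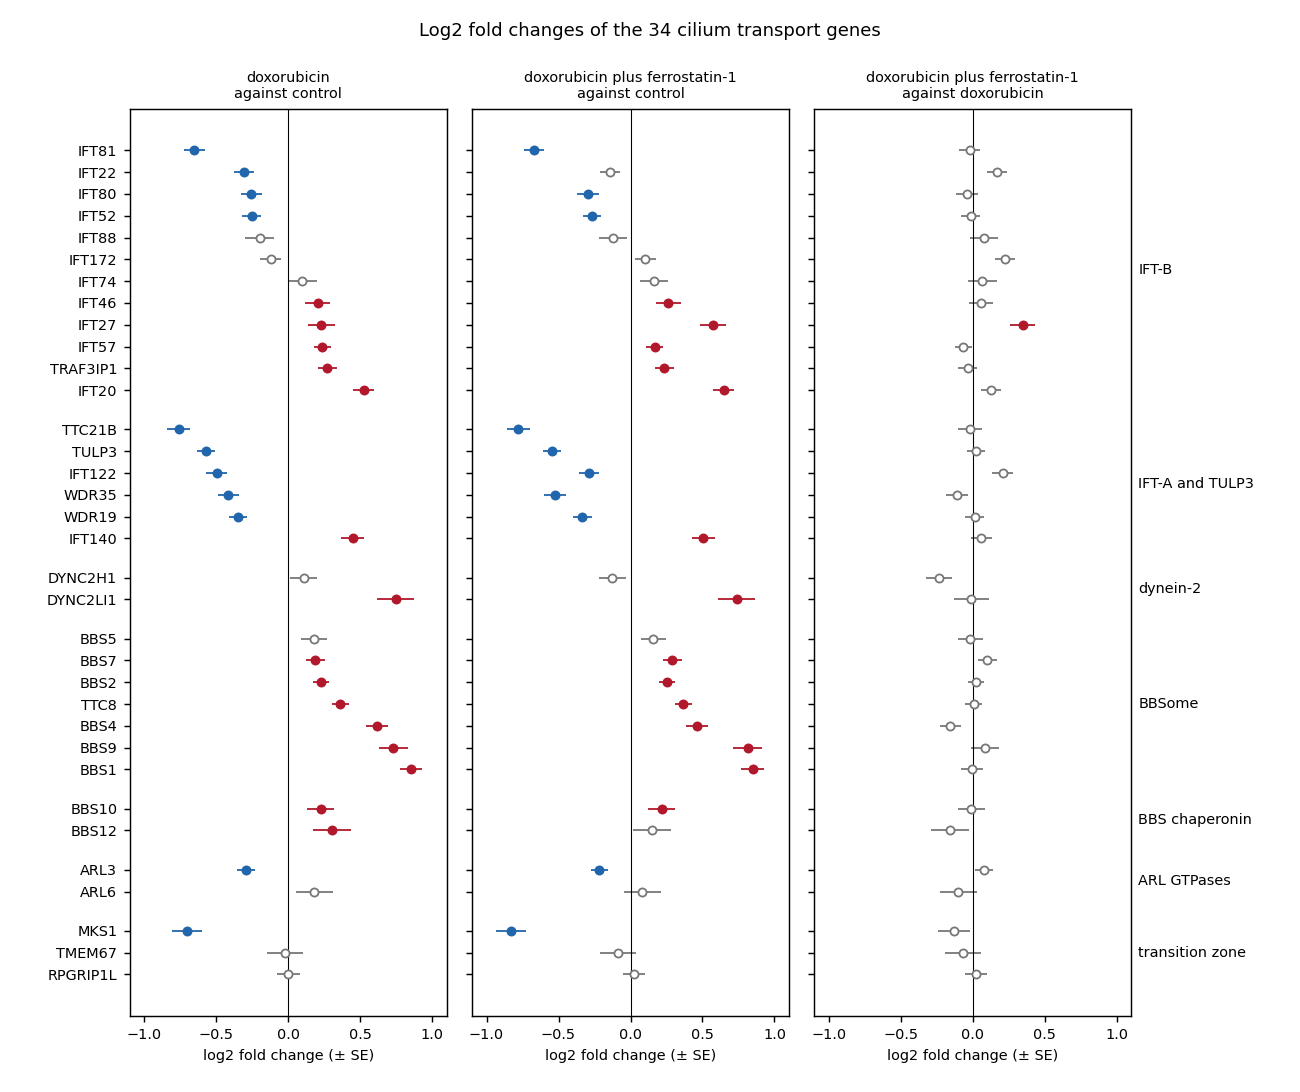
Log2 fold change with SE (horizontal axis) of each of the 34 genes, grouped by complex, in 3 comparisons of groups of 4 libraries; filled red points were called higher, filled blue lower, open points not called. IFT-A genes with TULP3 lie mostly left of 0 and BBSome genes right of 0 in both comparisons with control, while IFT27 is the 1 filled point in the comparison of both compounds with doxorubicin.

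The IFT-A complex, the adaptor that turns trains back to the cell body and brings receptors in, mostly fell. Of its 5 members here and TULP3, the tubby-like protein that hands G-protein-coupled receptors to IFT-A, 5 fell and 1 rose. Across all tested genes 33.8% were called lower and 33.4% higher. TTC21B encodes IFT139, a peripheral subunit. Its level was 33.0, 29.6, 26.8 and 27.8 CPM in the 4 control libraries, 18.8, 16.3, 17.4 and 16.5 with doxorubicin, and 17.7, 14.7, 17.6 and 18.1 with both compounds. Every treated library was below every control library. TTC21B fell by 0.76 ± 0.081 on the log2 scale with doxorubicin (adjusted p = 7.05e-08), to 0.589 of control. It shares 524 exonic bases with the antisense gene TTC21B-AS1, which was not analysed here.

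TULP3 stood at 44.8, 49.8, 46.6 and 43.1 CPM in control, 30.2, 32.4, 31.9 and 29.5 with doxorubicin and 30.0, 32.2, 33.99 and 30.2 with both compounds. Again no treated library reached the control range, and the log2 fold change was -0.57 ± 0.061 (adjusted p = 9.26e-08). IFT122, a core subunit, was at 36.4, 33.4, 31.4 and 31.9 CPM in control, 23.9, 25.2, 21.3 and 23.9 with doxorubicin and 30.6, 24.9, 27.0 and 26.4 with both compounds. Both treated groups lay below control, and 1 library with both compounds came within 1 CPM of the lowest control. IFT122 changed by -0.50 ± 0.074 with doxorubicin (adjusted p = 6.56e-06). WDR35, which encodes IFT121, fell from 26.3 ± 2.46 to 19.7 ± 0.827 CPM (log2 fold change -0.42 ± 0.075), and WDR19, which encodes the core subunit IFT144, from 24.7 ± 1.55 to 19.4 ± 0.967 CPM (-0.35 ± 0.065). In both genes the doxorubicin libraries lay below all control libraries.

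IFT140, also a core subunit, went the other way. It rose from 14.7 ± 0.562 to 20.01 ± 2.26 CPM, a log2 fold change of 0.45 ± 0.078 (adjusted p = 4.89e-05), with no overlap between the groups. Kits that do not mark strand, as used here, cannot separate a gene from one on the opposite strand where exons overlap. This touches IFT122, which shares 144 exonic bases with MBD4 (log2 fold change -0.75 with doxorubicin), and IFT140, which shares 31 with TELO2 (-0.87). On the same strand, TULP3 shares 60 bases with RHNO1 (-1.47). Without IFT122 and IFT140 the count was 4 of 4 lower, which still includes TTC21B and TULP3 with the overlaps given. The 5 lower and 1 higher were the same in number in each of the 20 alternative analyses. The summed level of the 6 genes was 166 to 185 CPM in control, 126 to 134 with doxorubicin and 129 to 140 with both compounds.

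Of the 7 BBSome members 6 rose with doxorubicin and 0 fell, beside 33.4% of all tested genes called higher and 33.8% lower. BBS1, the subunit through which the coat binds ARL6, had the largest rise among the 34. It stood at 12.0, 13.4, 12.4 and 12.6 CPM in control, 23.4, 23.3, 22.7 and 21.5 with doxorubicin and 22.6, 19.7, 25.8 and 22.5 with both compounds. The lowest treated library was well above the highest control, and the log2 fold change was 0.85 ± 0.078 (1.81-fold, adjusted p = 9.62e-09). BBS1 shares 759 exonic bases with ZDHHC24 on the opposite strand, which itself rose by 0.75.

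BBS4, a subunit linked to centriolar satellites, was at 11.5, 12.7, 12.8 and 11.6 CPM in control, 18.2, 19.0, 19.9 and 17.3 with doxorubicin and 17.6, 15.3, 17.3 and 16.7 with both compounds. The treated libraries were all above the control ones, with a log2 fold change of 0.62 ± 0.075 for doxorubicin (adjusted p = 4.77e-07). BBS9, a scaffold of the coat, had 7.25, 7.14, 6.21 and 8.10 CPM in control, 13.0, 11.8, 12.5 and 10.2 with doxorubicin and 11.7, 12.5, 12.8 and 13.6 with both compounds. There too the groups were apart, with a log2 fold change of 0.73 ± 0.10 (adjusted p = 3.09e-06).

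Smaller rises without overlap were found for TTC8, which encodes BBS8 (20.8 ± 1.14 to 26.7 ± 0.587 CPM, log2 fold change 0.36 ± 0.060), BBS2 (34.5 ± 2.01 to 40.4 ± 1.39 CPM, 0.23 ± 0.057) and BBS7 (21.2 ± 0.667 to 24.2 ± 2.12 CPM, 0.19 ± 0.065). BBS2 overlaps 220 exonic bases of OGFOD1 (0.37) on the opposite strand, and without BBS1 and BBS2 the count was 4 of 5 higher. BBS5 was not called, at 16.6 ± 1.45 and 18.8 ± 2.52 CPM (0.18 ± 0.089, adjusted p = 0.0869). It was called without control replicate 4 (0.24, adjusted p = 0.0280) or doxorubicin replicate 3 (0.26, adjusted p = 0.00813). Scaling by library totals alone left 4 of the 7 higher, with BBS2 and BBS7 no longer called. Other alternatives gave 5 to 7 higher, and 0 were lower in any.

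**Figure D2:**
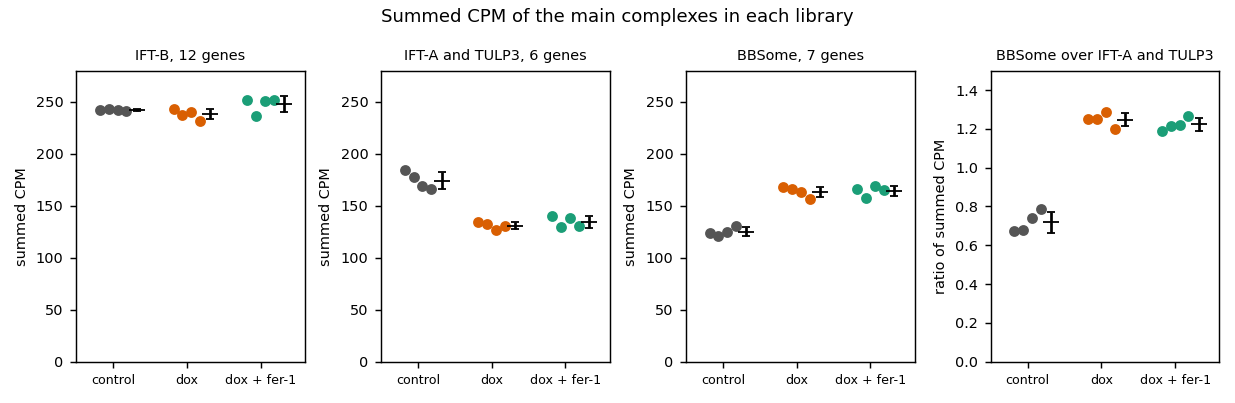
Summed CPM (vertical axis, from 0) of the IFT-B, IFT-A with TULP3 and BBSome genes in each library of the 3 groups. The last panel is the ratio of the BBSome sum to the sum of IFT-A with TULP3. Points are libraries, and black bars are mean ± SD (n = 4). The ratio is 0.673 to 0.786 in control and 1.19 to 1.29 in all 8 treated libraries. The IFT-B sum hardly moves on the TMM scale, whereas the ratio does not depend on scaling.

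The summed levels of both groups were also compared within each library, where scaling cancels. The BBSome sum divided by the IFT-A and TULP3 sum was 0.719 ± 0.053 in control (0.673 to 0.786), 1.25 ± 0.036 with doxorubicin (1.20 to 1.29) and 1.22 ± 0.033 with both compounds (1.19 to 1.27). In control cells the 7 BBSome genes thus had fewer counts than the 6 genes of IFT-A and TULP3 in every library, and in treated cells more in every library. TULP3, which is not an IFT-A subunit, gave 46.1 of the mean 174 CPM in control and 31.0 of 131 CPM with doxorubicin. Without TULP3 the order would still hold in control replicates 1 and 2 and would turn round in control replicates 3 and 4. The IFT-B sum divided by the IFT-A and TULP3 sum was 1.39 ± 0.063 in control and 1.82 ± 0.054 with doxorubicin. These ratios describe the libraries and carry no test, since the lists were set with earlier results of the same data known.

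IFT-B is the complex that carries tubulin and other building blocks outward. Of 12 genes 5 rose, 4 fell and 3 were not called. The share called was 75%, near the 67.1% of all tested genes. On the TMM scale their sum was 242 ± 0.906 CPM in control, 238 ± 4.79 with doxorubicin and 248 ± 7.56 with both compounds. With libraries scaled by their totals alone, 1 of the 12 rose and 6 fell. IFT81, which forms the tubulin-binding module with IFT74, had the largest fall. It stood at 23.1, 20.2, 20.8 and 20.8 CPM in control, 13.0, 14.0, 13.5 and 13.6 with doxorubicin and 12.9, 12.6, 13.3 and 14.5 with both compounds. The treated libraries lay far below control, and the log2 fold change was -0.65 ± 0.071 (adjusted p = 1.11e-07). Its partner IFT74 was not called, at 11.8 ± 1.07 and 12.6 ± 1.54 CPM (0.10 ± 0.10), and it shares 272 exonic bases with PLAA on the opposite strand (0.20).

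IFT22, a small GTPase-like subunit, had 22.9, 26.7, 26.6 and 24.2 CPM in control, 19.8, 20.4, 19.5 and 21.3 with doxorubicin and 22.6, 21.2, 22.0 and 25.03 with both compounds. Doxorubicin libraries were below control (-0.31 ± 0.070, adjusted p = 0.000652), and those with both compounds overlapped control. IFT52, a core scaffold, fell from 24.4 ± 1.33 to 20.4 ± 1.31 CPM (-0.26 ± 0.065). IFT80 fell from 32.7 ± 2.36 to 27.3 ± 1.82 CPM (-0.26 ± 0.076). IFT80 shares 607 exonic bases with SMC4 on the opposite strand, which fell by 3.30 on the log2 scale.

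IFT20, the subunit with an additional pool at the Golgi, rose most within IFT-B. Its level was 13.2, 15.1, 15.2 and 15.3 CPM in control, 20.9, 20.8, 22.0 and 20.7 with doxorubicin and 25.7, 22.5, 21.0 and 22.8 with both compounds. No treated library fell to the control range (0.52 ± 0.074, adjusted p = 4.08e-06). It shares 361 exonic bases with TMEM97 on the opposite strand, which fell by 1.41. Without IFT20, IFT74 and IFT80, 4 of 9 IFT-B genes were higher and 3 lower. TRAF3IP1, which encodes IFT54, rose from 20.9 ± 1.45 to 25.2 ± 1.47 CPM (0.27 ± 0.066), and IFT57 from 33.3 ± 1.46 to 39.2 ± 1.04 CPM (0.24 ± 0.059), both without overlap. Neither was called with library totals alone (TRAF3IP1 0.13, adjusted p = 0.0882; IFT57 0.09, adjusted p = 0.167).

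The IFT-B calls of IFT46 and IFT27 were marginal. IFT46 moved from 12.8 ± 1.01 to 14.7 ± 0.76 CPM (0.20 ± 0.086, adjusted p = 0.0439), and IFT27, given in full further on, by 0.23 ± 0.094 (adjusted p = 0.0388). In both the doxorubicin libraries overlapped control, and each call was lost in several alternatives. IFT88, needed for cilium assembly, was at 11.9 ± 0.513 and 10.3 ± 1.07 CPM (-0.20 ± 0.099, adjusted p = 0.0811), and IFT172, a peripheral subunit at the train's turning points, at 22.1 ± 1.68 and 20.3 ± 1.65 CPM (-0.12 ± 0.073, adjusted p = 0.151). Neither was called, although both were called lower when libraries were scaled by totals alone (-0.34 and -0.26).

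**Figure D3:**
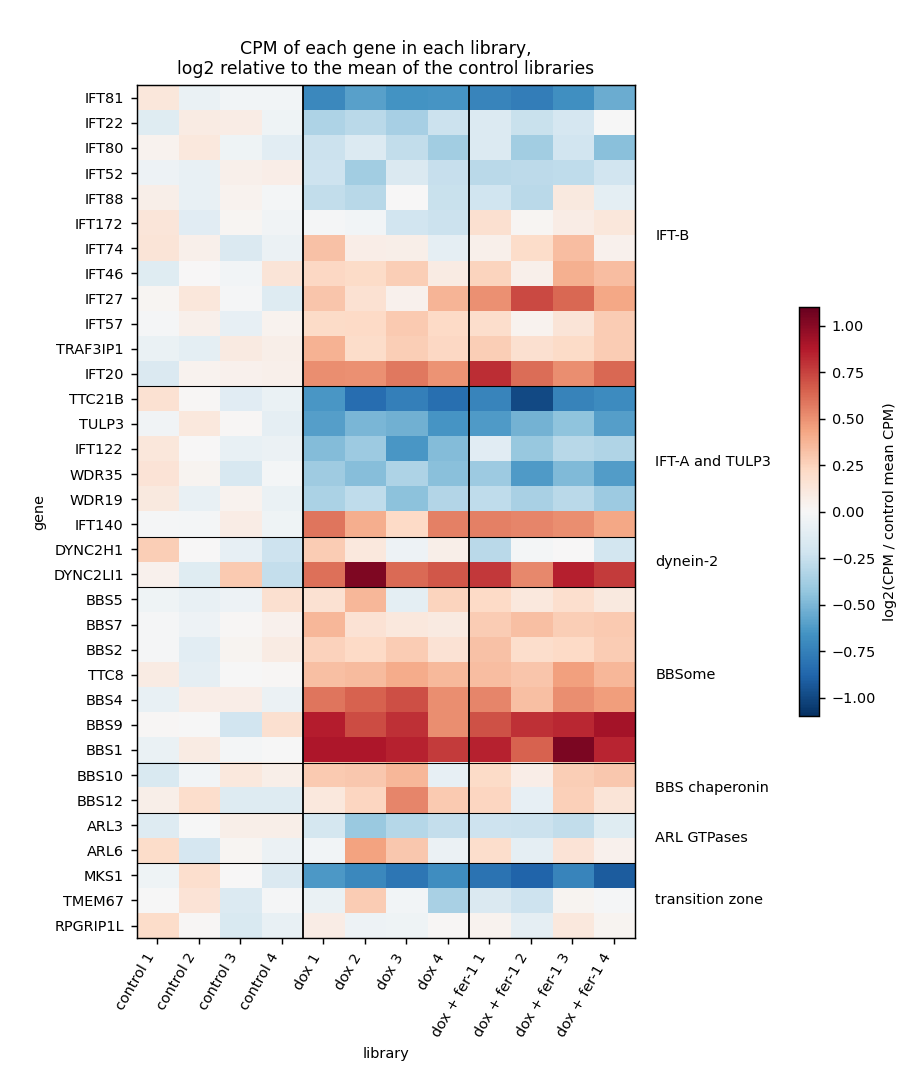
Each cell is the log2 ratio of a gene's CPM in 1 library (columns, 4 per group) to the mean of its 4 control libraries, with the 34 genes in rows grouped by complex; red is above and blue below control. In all 8 treated libraries TTC21B, TULP3, IFT81 and MKS1 are blue and BBS1, BBS9 and DYNC2LI1 red.

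Dynein-2 is the motor of the return journey. The light intermediate chain gene DYNC2LI1 was at 6.06, 5.33, 7.17 and 4.88 CPM in control, 8.91, 11.9, 9.01 and 9.42 with doxorubicin and 10.0, 8.43, 10.6 and 10.0 with both compounds. All treated libraries were above control, with a log2 fold change of 0.74 ± 0.13 (1.68-fold, adjusted p = 4.65e-05). The heavy chain gene DYNC2H1 had 77.3, 63.9, 59.9 and 54.5 CPM in control, 77.5, 69.2, 61.5 and 66.9 with doxorubicin and 51.9, 62.8, 64.0 and 55.7 with both compounds. The groups overlapped throughout and DYNC2H1 was not called (0.11 ± 0.093, adjusted p = 0.323). The result hung on control replicate 1, the highest of that group, without which the log2 fold change was 0.21 (adjusted p = 0.0266).

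The BBS chaperonin genes help assemble the BBSome. BBS10 had 13.0, 14.2, 15.8 and 15.2 CPM in control, 17.7, 17.8, 18.7 and 13.6 with doxorubicin and 16.9, 15.3, 17.6 and 17.9 with both compounds. In BBS10, 3 doxorubicin libraries were above control and 1 within its range (0.22 ± 0.094, adjusted p = 0.0419). BBS12 had 5.16, 5.65, 4.49 and 4.49 CPM in control, 5.36, 5.83, 7.19 and 6.03 with doxorubicin and 5.83, 4.65, 5.95 and 5.45 with both compounds. Its groups overlapped as well (0.30 ± 0.13, adjusted p = 0.0495), and both calls disappeared in many alternatives, among them the replicate block (adjusted p = 0.0502 and 0.0727).

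ARL3 is the GTPase that releases lipid-anchored proteins from their carriers inside the cilium. It was at 47.8, 52.6, 55.2 and 55.2 CPM in control, 46.2, 39.7, 42.3 and 44.0 with doxorubicin and 44.9, 44.7, 43.8 and 48.0 with both compounds. The doxorubicin libraries lay below control (-0.29 ± 0.061, adjusted p = 0.00027), and 1 library with both compounds lay just inside the control range. ARL6, which recruits the BBSome to membranes, was at 7.50, 5.71, 6.59 and 6.20 CPM in control, 6.38, 8.82, 7.99 and 6.20 with doxorubicin and 7.44, 6.08, 7.23 and 6.73 with both compounds. Groups overlapped and ARL6 was not called (0.18 ± 0.13, adjusted p = 0.229).

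Of the 3 transition zone members, MKS1 fell and the others were not called. MKS1 was at 9.48, 11.1, 9.80 and 8.73 CPM in control, 6.32, 5.98, 5.63 and 6.09 with doxorubicin and 5.58, 5.31, 5.90 and 5.18 with both compounds. Every treated library was below control (-0.70 ± 0.10, adjusted p = 6.47e-06). TMEM67, which encodes the membrane protein meckelin, was at 7.40, 8.26, 6.69 and 7.37 CPM in control, 7.05, 9.02, 7.29 and 5.80 with doxorubicin and 6.65, 6.33, 7.59 and 7.35 with both compounds, with full overlap (-0.02 ± 0.13, adjusted p = 0.893). RPGRIP1L, a scaffold of the gate, was at 24.3, 21.3, 18.7 and 19.95 CPM in control, 22.3, 20.2, 20.4 and 21.2 with doxorubicin and 21.6, 19.7, 22.9 and 21.5 with both compounds. Its groups were level (log2 fold change -0.00 ± 0.078, adjusted p = 0.995).

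**Figure D4:**
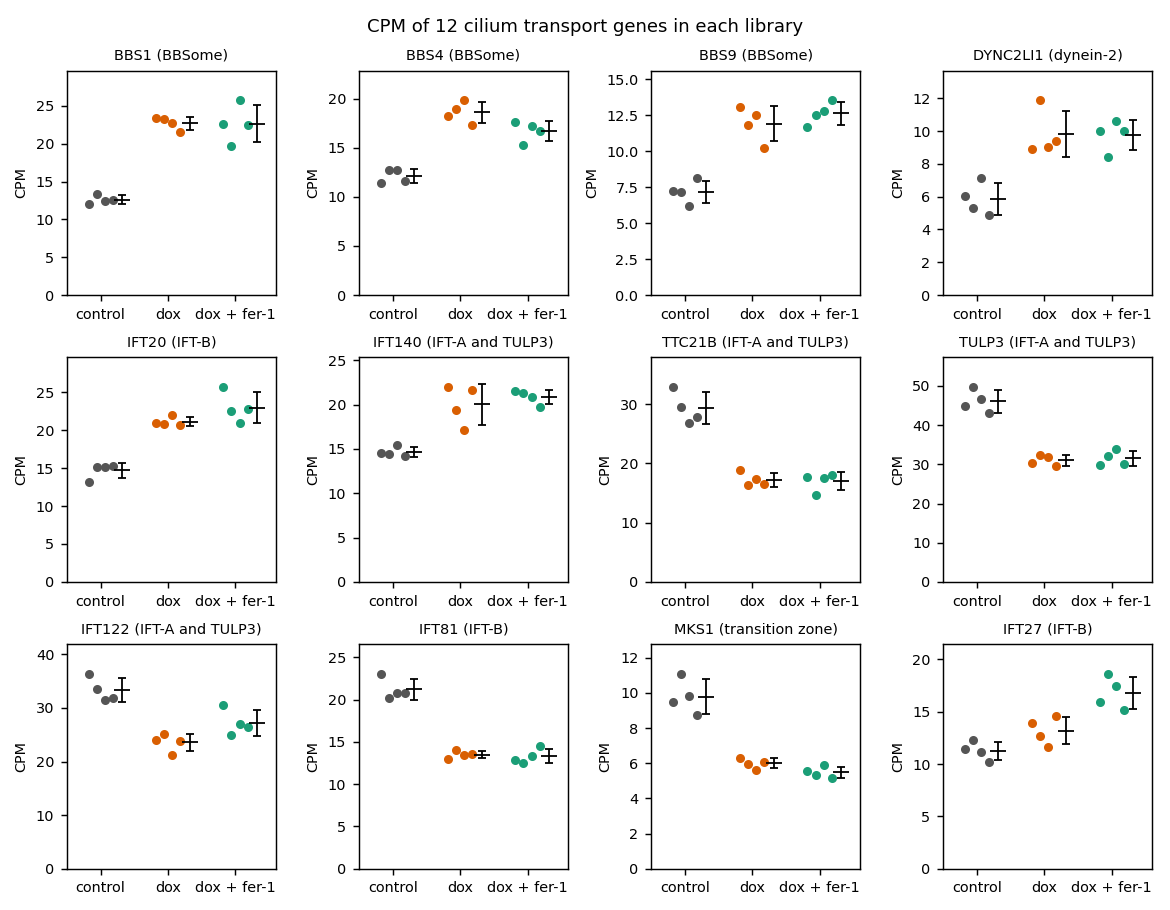
CPM (vertical axes, from 0) of 12 of the genes in each of the 12 libraries, with mean ± SD (n = 4) in black beside the points of each group. BBS1, BBS4, BBS9, DYNC2LI1, IFT20 and IFT140 are higher and TTC21B, TULP3, IFT122, IFT81 and MKS1 lower in all 8 treated libraries than in control, and IFT27 is highest with both compounds.

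Adding ferrostatin-1 to doxorubicin changed little among these genes. Of the 34, 1 rose and 0 fell (0 also by DESeq2), against 5.64% of all tested genes called, 2.36% higher and 3.28% lower. At an unadjusted p below 0.05, DYNC2H1 (-0.23 ± 0.093) and BBS4 (-0.15 ± 0.072) were lower and not called, and IFT172 (0.23 ± 0.072), IFT122 (0.21 ± 0.074) and IFT22 (0.17 ± 0.070) higher and not called. The median log2 fold change of members was 0.00 and that of all genes -0.00. The 1 call was IFT27, the small GTPase subunit of IFT-B that is needed for the BBSome to leave the cilium. It stood at 11.4, 12.3, 11.2 and 10.2 CPM in control, 13.9, 12.7, 11.6 and 14.6 with doxorubicin and 16.0, 18.6, 17.5 and 15.1 with both compounds. The libraries with both compounds were all above the doxorubicin ones, while doxorubicin and control overlapped. The log2 fold change of ferrostatin-1 addition was 0.35 ± 0.090 (1.27-fold, adjusted p = 0.0245). It stayed positive but lost its call without doxorubicin replicate 2 (0.33, adjusted p = 0.0887) or 3 (0.29, 0.0956), or without replicate 2 (0.29, 0.0878) or 3 (0.33, 0.0629) of the combined treatment.

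IFT172 was the other gene without overlap, at 21.8, 21.6, 19.0 and 18.7 CPM with doxorubicin and 25, 22.4, 23.4 and 24.1 with both compounds. It was not called (0.23 ± 0.072, adjusted p = 0.0858), and 11.2% of all genes had non-overlapping groups in this comparison. Of the genes with the largest responses to doxorubicin, BBS1 had a log2 fold change of -0.00 ± 0.074 on addition of ferrostatin-1, TTC21B -0.02 ± 0.084, TULP3 0.02 ± 0.063, IFT81 -0.02 ± 0.074, MKS1 -0.13 ± 0.11 and DYNC2LI1 -0.01 ± 0.12. BBS9 had 0.08 ± 0.096, BBS4 -0.15 ± 0.072 and IFT20 0.13 ± 0.071, none of them called. IFT122 had 0.21 ± 0.074 (adjusted p = 0.128). Without a filter on low counts DYNC2H1 was called lower (-0.23, adjusted p = 0.0443).

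With both compounds against control, 14 members rose, 10 fell and 10 were not called, beside 67.2% of all genes called, 33.0% higher and 34.2% lower. This comparison shares its control libraries with doxorubicin against control, so the values stand side by side only as a description. BBS1 had 0.85 and 0.85 on the log2 scale with doxorubicin and with both compounds, BBS9 0.73 and 0.81, IFT20 0.52 and 0.65, TTC21B -0.76 and -0.78, MKS1 -0.70 and -0.83 and IFT122 -0.50 and -0.29. IFT27 had 0.23 and 0.57. By complex, IFT-A with TULP3 again had 5 lower and 1 higher, and the BBSome 6 higher and 0 lower. IFT22 and BBS12 were called with doxorubicin and not with both compounds (-0.14 and 0.15 there).

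Levels can be set against each other only per length. Divided by the median length of its annotated coding transcripts (GENCODE 29), IFT22 was highest in control at 22.2 ± 1.62 CPM per kb, followed by TULP3 at 18.3 ± 1.14 and IFT20 at 17.7 ± 1.20. TULP3 and IFT20 did not differ beyond their spread. With doxorubicin IFT20 was highest at 25.4 ± 0.711 CPM per kb, then IFT22 at 17.9 ± 0.679 and BBS2 at 14.5 ± 0.498, and TULP3 at 12.3 ± 0.550. The lowest in control were BBS12 at 1.48 ± 0.170, BBS9 at 1.83 ± 0.197 and TMEM67 at 1.88 ± 0.163 CPM per kb, of which BBS9 and TMEM67 did not differ beyond their spread. Which transcripts were in use was not known, so the order is approximate. Between replicates the members varied like other genes of their level. Their median coefficient of variation was 7.25% in control, 6.53% with doxorubicin and 6.95% with both compounds, against 7.15, 6.60 and 7.33% over 6997 genes in the same range of levels.

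Other genes of the cilium, outside the 34, were described by lists. Their calls stand beside the 67.1% of all tested genes called with doxorubicin, 33.4% higher and 33.8% lower. Kinesin-2, the outward motor, had 4 of 5 genes higher and 0 lower with doxorubicin (median log2 fold change 0.43), with KIF3B at 64.9 ± 1.14 CPM in control and 95.1 ± 1.94 with doxorubicin (0.55 ± 0.046). Of 6 other IFT genes 4 were lower and 1 higher (median -0.59), the fall with the smallest p being that of HSPB11, whose product IFT25 is the partner of IFT27 (-0.91 ± 0.082, adjusted p = 6.37e-09). TTC30A and TTC30B in this list are near-identical copies, so their counts are uncertain. Of 5 other dynein-2 genes 2 rose and 2 fell (median -0.01), with the intermediate chain gene DYNC2I2 at -1.71 ± 0.077. Of 3 other BBS genes 1 fell, BBIP1, a small BBSome subunit (-0.48 ± 0.093), and the list's median was -0.07. The remaining BBSome subunit thus went against the 6 that rose.

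Of 12 genes for ciliary GTPases and lipidated cargo 4 rose and 5 fell (median 0.04), with RAB8A, a GTPase of vesicle delivery to the cilium, at -0.46 ± 0.049. Of 18 other transition zone genes 5 rose and 8 fell (median -0.13), with TCTN3 at 0.79 ± 0.046 and TMEM237 at -0.68 ± 0.049. Of 10 genes for distal appendages and cilium initiation 3 rose and 6 fell (median -0.31). EHD3 (0.98 ± 0.053) and EHD1 (0.72 ± 0.041), membrane-shaping proteins of the early ciliary vesicle, were among those that rose. The shares called were 75%, 72.2% and 90%, in the order given, against 67.1% of all tested genes.

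Genes listed under cilium disassembly and centriole capping had the lowest median of these lists. Of 11, 9 were lower and 2 higher (median -0.93). PLK1 had -4.89 ± 0.092 and AURKA -2.81 ± 0.067, both also mitotic kinases, and MKI67 moved with them (-4.60 ± 0.12). Of 13 tested Hedgehog genes, the pathway that runs through the cilium, 7 fell and 3 rose (median -0.55), with the Hedgehog-binding protein gene HHIP at -1.52 ± 0.050 and the transcription factor gene GLI3 at -1.71 ± 0.096. Of 7 tested transcription regulators of cilium genes 4 fell and 1 rose (median -0.24), with MYB at -3.98 ± 0.27. Motile cilium genes had 2 higher and 1 lower of 5 tested (median 0.00), with DNAH5 at 1.86 ± 0.255 CPM in control and 3.63 ± 0.515 with doxorubicin. From the disassembly to the motile list the shares called were 100%, 76.9%, 71.4% and 60%, against 67.1% of all tested genes. When ferrostatin-1 was added, 2 genes of all these other lists were called, beside 5.64% of all tested genes. Singled out here after their values were seen, they were CEP89 (0.19, adjusted p = 0.0418) and KIF7 (0.32, adjusted p = 0.0321), both higher. CEP89 was 1 of 10 tested distal appendage genes and KIF7 1 of 13 tested Hedgehog genes, and the remaining lists had 0 calls.

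**Figure D5:**
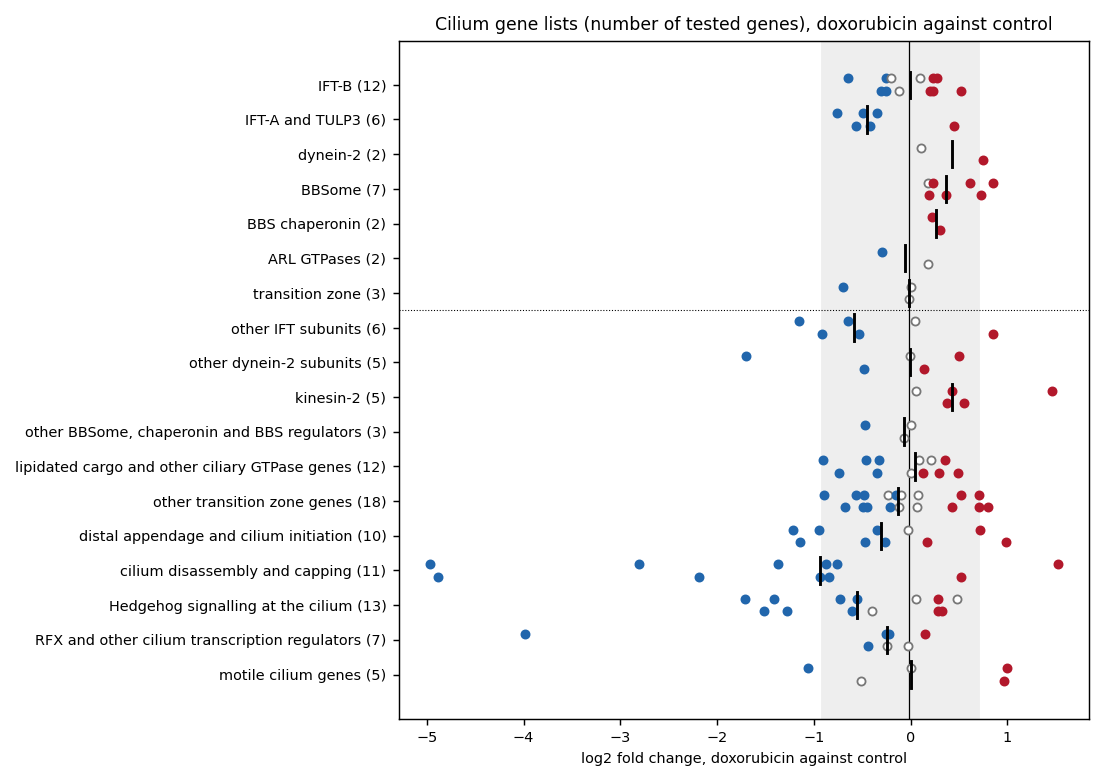
Log2 fold change of doxorubicin against control (horizontal axis) for every tested gene of the 7 groups of the 34 members, above the dotted line, and of 11 other cilium lists; filled points were called (red higher, blue lower), open points were not, black bars are list medians and the grey band spans the 10th to 90th percentile of all tested genes (-0.92 to 0.71). Members stay mostly within the band, while cilium disassembly genes reach -4.96.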

How the data were processed

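Raw counts per gene were deposited by the authors as 1 table; Salmon, DESeq2 and the build GRCh38 appear in the submitters' processing notes, without versions or roles. How Salmon estimates became whole-number counts is not given in the sources used here. Per the labels' protocols, total RNA went into paired-end libraries by a kit that leaves strand unmarked. Columns carry a group and a number but not a sample title, so only the group was used, and 0 count columns were without a group.

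Counts of identifiers sharing a symbol were summed. Genes were kept by filterByExpr (minimum count 10, total 15), scaled by TMM, and fitted in 1 quasi-likelihood model with a mean per group over 12 libraries, all in edgeR 4.0.16 (R 4.3.3, limma 3.58.1). The 3 comparisons were tested two-sided with Benjamini-Hochberg adjustment over all 13340 genes. The procedure was also run on simulated data in which few genes changed, as many up as down. Such data do not bear on the choice of scaling. DESeq2 1.42.0 was an alternative. Others were library totals or RLE size factors, looser and stricter filters, identifiers one by one, only the 2 groups compared, a replicate block and leaving out each library. Figures used matplotlib 3.10.9, numpy 2.4.6 and Python 3.11.15.

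Nothing says whether the 4 replicates of a group were separate cultures, so p-values measure only the spread between these samples. Same-numbered libraries of different groups had residual correlations of -0.104 to 0.0976 in 12 pairs, against -0.102 to 0.142 in 36 pairs with different numbers. No pairing by number was visible in these values, which cannot exclude that cultures were paired. Members and lists were chosen with earlier results of these data known. All 34 members were accounted for; full values were given for the 3 members with the smallest p in doxorubicin against control in each role group and for any called on addition of ferrostatin-1, and in other lists the gene with the smallest p was named, or 2 where over 8 genes were tested. Gene positions came from GENCODE 29 on GRCh38 and promoters from RefSeq GRCh38.p14, where 4 members, IFT22, WDR35, BBS9 and TMEM67, had none. The symbol TTC26 was used for IFT56. A gene that the naming rule picks is not reported here, though the counts and median of its list include it.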

Additional observations from a re-analysis of the deposited data

Results flagged for a closer look

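In 6 of 102 combinations of a member and a group of 4 libraries, 1 library lay far from the other 3, which chance gives in about 1 of 20 groups. IFT20 was low in control replicate 1 at 13.2 CPM, where the others were at 15.1 to 15.3, and high in doxorubicin replicate 3 at 22.0 CPM against 20.7 to 20.9. IFT57 was high in doxorubicin replicate 3, at 40.8 CPM against 38.6 to 38.7. TTC21B was low in replicate 2 with both compounds, at 14.7 CPM against 17.6 to 18.1. DYNC2LI1 was high in doxorubicin replicate 2, at 11.9 CPM against 8.91 to 9.42. BBS5 was high in control replicate 4, at 18.8 CPM against 15.7 to 16.0, and is the 1 of these genes whose call changed without the library named.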

How the results depend on the processing

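The counts of members that fell with doxorubicin were 11 to 13 in all alternatives, and no called member changed direction. With library totals alone as the scale, the median of all genes went from -0.01 to -0.15 (3250 genes higher and 5824 lower, against 4453 and 4503), and 7 members were higher with doxorubicin instead of 15, and 9 with both compounds instead of 14. Without a filter on low counts 1 member was lower on addition of ferrostatin-1 instead of 0. Leaving out 1 library at a time gave 11 to 15 members higher and 11 to 12 lower with doxorubicin, 0 to 1 higher and 0 to 0 lower on addition of ferrostatin-1, and 12 to 15 higher and 10 to 11 lower with both compounds against control. The replicate block gave 12 higher and 11 lower with doxorubicin, 1 and 0 on addition of ferrostatin-1, and 13 and 10 with both compounds, but the numbers are not known to pair the libraries. Of 680 single-gene values with doxorubicin, 47 lost and 6 gained a call and 0 reversed; on addition of ferrostatin-1 4 lost and 1 gained, and with both compounds 17 lost and 6 gained. Leaving out members whose exons overlap a tested gene on the opposite strand left 27, of which 11 rose and 9 fell with doxorubicin. Depth limits the low genes: BBS12, ARL6 and TMEM67 had standard errors of 0.13 on the log2 scale, and small changes could not be detected there.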
